A study of Mus musculus with 4 samples.

Results

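Wild-type (WT) mouse embryonic stem cells (ESCs) kept in serum/LIF were compared with the same cells after treatment with basic FGF and Activin A (F/A). The comparison used the 2 WT libraries of the 4 in the series and all 15462 genes of the authors' normalised table, out of 37620 genes in the raw count table. The cells were of the R1 line, an established ESC line of strain 129/Sv, labelled ESC in serum/LIF and EpiSC (epiblast stem cell) after F/A. The serum/LIF library came from the self-renewing culture in serum with leukaemia inhibitory factor (LIF). The F/A library came from cells seeded at low density and kept for 6 days in N2B27, a medium without serum, with bFGF and 20 ng/ml Activin A. Neither WT library carried the Cripto (Tdgf1) deletion of the other 2 libraries, the serum/LIF and F/A cultures of Cripto KO cells. Total RNA was sequenced from whole cultures, with 1 library for each condition, so every error given below is a counting error and nothing measures the spread between cultures.

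ESCs in serum/LIF are close to the naive epiblast of the blastocyst, where LIF acts through STAT3 and holds a set of factors such as Esrrb and Klf4. FGF and Activin move mouse cells towards the primed state of the post-implantation epiblast, from which the primitive streak and the germ layers arise. Cells entering the primed state are known to lose the naive factors early, to keep Pou5f1 and to gain epiblast genes such as Fgf5.

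The F/A library held 15230856 counts on genes and the serum/LIF library 17315442. The genes of the normalised table took 99.85% and 99.82% of them. A gene was called higher or lower when its normalised values differed at least 2-fold and the 95% interval of the ratio of its raw counts lay on the same side of 1. By this rule 3401 genes (22.0%) were higher in F/A and 3224 (20.9%) lower, together 42.9% of the genes, and 1780 (11.5%) and 1495 (9.67%) of them passed a fold of 4. The median log2 change over all genes was -0.07. These shares are the background for the counts below, where "rose" and "fell" are used only of called genes, and the paired numbers after a gene are its raw counts, those of the F/A library first and those of serum/LIF second. CPM stands for raw counts per 1000000 counts of the library. In RNA from a whole culture, fewer cells of a type and less RNA per cell cannot be told apart.

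Against its markers the serum/LIF library was naive and the F/A library was not. The 11 naive markers with counts summed to 4141 CPM in serum/LIF and to 79.8 in F/A, which is 1.93% of the serum/LIF level, and all 10 that were in the normalised table fell. Nr0b1 and Dppa3 had no count in F/A, although Dppa3 had only 10 counts in serum/LIF. Of 11 measured primed markers 7 rose and 2, Pou5f1 and Sox2, fell. The 12 primed markers with counts summed to less in F/A, 1238 CPM against 2536 in serum/LIF. Of the serum/LIF sum, Pou5f1 gave 1551 CPM and Sox2 725.4.

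The wider naive list fell as a whole: 20 of 20 measured genes were lower, none was higher, and the median log2 change was -6.53. With genes at 3 counts or fewer in either library left out, the median was -6.13. Nr0b1, an orphan nuclear receptor of naive cells (X chromosome, 83437103 to 83441286, NCBIM37), had 0 counts in F/A against 4045 in serum/LIF. It was at least 1186-fold lower. Esrrb, a nuclear receptor that sustains self-renewal, had 13 counts in F/A against 15699 in serum/LIF, 1008-fold lower (95% interval 589 to 1894). Zfp42 (Rex1), the usual reporter gene of the naive state, gave 28 and 19853 counts, a fall of 596-fold (412 to 897). The 3 genes were thus close to the detection limit in F/A and abundant in serum/LIF.

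Dppa5a, an RNA-binding protein gene of early embryos, went from 16948 counts in serum/LIF to 5 in F/A, 2802-fold lower (1200 to 8630). The naive markers Klf2, Klf4 and Klf5, all Krueppel-like factors, fell by unequal amounts. Klf2 was 340-fold lower (16 and 6136 counts, interval 209 to 594) and Klf4 65.2-fold lower (103 and 7372 counts, 53.7 to 80.0). Klf5 kept 744 counts in F/A beside 4351 in serum/LIF, 5.45-fold lower (5.04 to 5.89). Among the 15 measured Krueppel-like factor genes 7 fell, and 2 rose, Klf6 (4871 and 544 counts) and Klf7 (1318 and 298 counts).

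The factors shared by naive and primed cells were less uniform, with 2 of 16 measured genes higher, 8 lower and a median log2 change of -1.81. Pou5f1, the central pluripotency factor, had 1810 counts in F/A against 26857 in serum/LIF and was 12.7-fold lower (12.1 to 13.4). Sox2, its partner on DNA, had 612 and 12560 counts and was 18.0-fold lower (16.6 to 19.5). Both remained readily detected in F/A. The 2 genes that rose were the RNA-binding proteins Lin28a and Lin28b, which block processing of let-7 miRNAs. Lin28a had 13882 and 3580 counts, 4.54-fold higher (4.37 to 4.71), and Lin28b had 1338 and 363, between 3.56 and 4.51 times as high.

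Of 19 measured formative and primed epiblast genes 12 rose and 1, Foxd3, fell (median log2 change 1.61). Fgf5, a ligand of the primed epiblast, had 2206 counts in F/A against 3 in serum/LIF, a ratio of 1007 (344 to 4888). Fgf8, a growth factor of epiblast and streak, had 1256 and 2 counts, a ratio of 1022 (282 to 8445). Those 2 ligands were nearly silent in serum/LIF. The adhesion genes of the list were already detected there: N-cadherin (Cdh2) had 4232 and 111 counts, 43.3-fold higher (35.9 to 52.8), and Claudin 6 (Cldn6) 4764 and 476 counts, a log2 change of 3.46. The DNA methyltransferase Dnmt3b had 3515 and 1593 counts, 2.35-fold higher (2.21 to 2.49). Otx2, a head and epiblast homeobox factor, had 2375 and 1307 counts, a ratio of 1.93 (1.81 to 2.07), and did not reach the 2-fold limit.

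**Figure D1:**
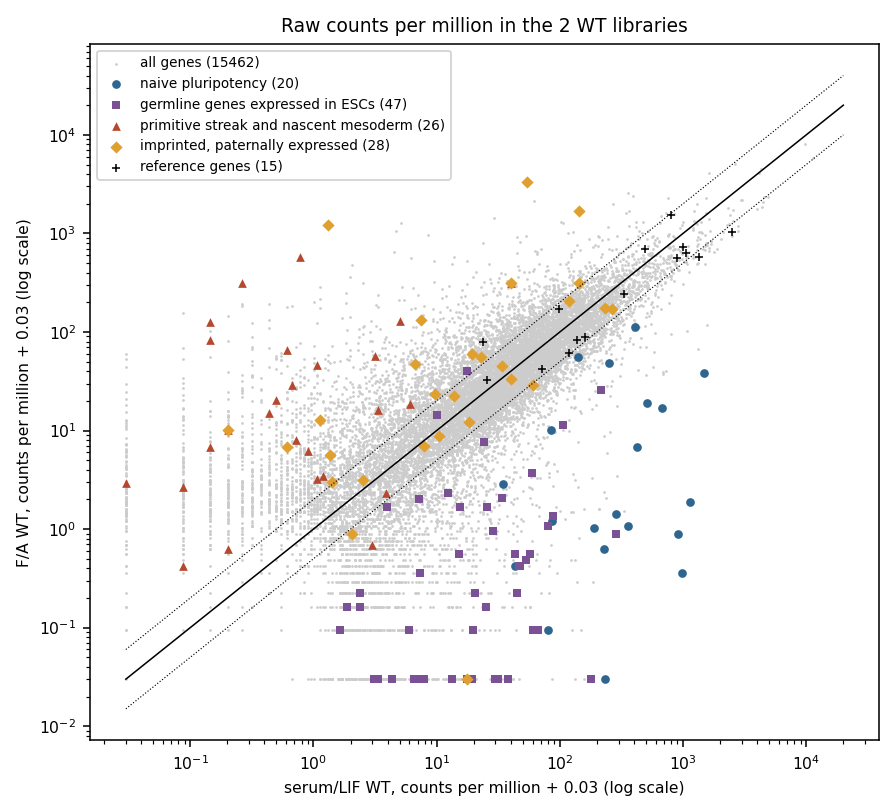
Raw CPM of each gene in serum/LIF WT (x axis) and F/A WT (y axis), both with 0.03 added and on log scales, 1 library each. Grey points are the 15462 genes of the normalised table and coloured points mark members of 5 lists, with the diagonal solid and 2-fold differences dotted; the 20 naive and nearly all of the 47 germline genes lie below the diagonal, and 24 of the 26 primitive streak genes were called higher.

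Genes of the primitive streak, the site where the epiblast becomes mesoderm and endoderm, had one of the highest medians. Of 26 measured genes 24 rose and 1 fell, and the median log2 change was 5.05 (4.80 for Cripto KO cells). T (brachyury), the T-box factor of the streak and node, had 8748 counts in F/A against 13 in serum/LIF, 938-fold higher (548 to 1762). Lhx1, a LIM homeobox factor of the anterior streak, had 1909 and 2 counts, a ratio of 1571 (434 to 12980). Eomes, the T-box factor for endoderm and cardiac mesoderm, had 1963 and 86 counts, 26.1-fold higher (21.0 to 32.8), and Mixl1, a homeobox gene of the streak, had 121 and 12, 12.6-fold higher (6.96 to 25.1). All 4 regulators were higher in F/A.

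The definitive endoderm list had 15 of 20 genes higher and 1 lower (median log2 change 3.91). Foxa2, a forkhead factor of endoderm and node, had 1360 and 5 counts, 371-fold higher (158 to 1144). Sox17, a regulator of endoderm, had 688 and 10 counts, 90.5-fold higher (48.9 to 190). Foxa1, a related forkhead factor, had 814 and 8 counts. Hnf4a, a factor of differentiated gut and liver and of visceral endoderm, went the other way with 2 and 111 counts.

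Mesoderm genes gave a similar count, with 27 of 31 lateral, cardiac and paraxial mesoderm genes higher and 2 lower (median 3.85). Cardiac alpha-actin (Actc1) had 317 counts in F/A and none in serum/LIF, at least 120.1-fold higher. Hand1, a helix-loop-helix factor of lateral mesoderm and trophoblast, had 196 and 1 counts, a ratio of 267 (47.4 to 10600). Tbx20, a cardiac T-box factor, had 766 and 5 counts, 208-fold higher (88.7 to 642). The 2 lower members were Tbx3 (290 and 8806), which also serves in naive cells, and Tcf15 (37 and 434).

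The blood and endothelium list was split, with 8 of 20 genes higher and 11 lower. The receptors for VEGF rose: Kdr (Flk1) had 417 and 5 counts, 116-fold higher (49.1 to 358), and Flt1 had 3646 and 57, 76.5-fold higher (58.9 to 101). Pecam1, a surface protein of endothelium that naive ESCs also carry, had 9 and 3952 counts, 384-fold lower (202 to 841). Its median of -1.28 turned to 0.54 when genes averaging under 50 raw counts were left out.

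Both extra-embryonic lists also had more members higher than lower. Among primitive endoderm genes 12 of 19 rose and 3 fell (median 2.24): Gata6 had 465 and 18 counts, 32.9-fold higher (20.6 to 55.9), and Gata4 had 831 and 65, 14.7-fold higher (11.4 to 19.3). The whole list of 10 primitive endoderm markers summed to 2012 CPM in F/A and 563.9 in serum/LIF, with 7 higher and 1 lower. Among these 10, Dab2 had 609 and 132 counts and Col4a1 7378 and 1164. Amn (2 and 63 counts) fell, and Sox7 (20 and 45) and Lama1 (1304 and 2497) had fewer counts in F/A but were uncalled. Of 18 trophoblast genes 12 rose and 4 fell (median 3.44). The keratins of simple epithelia rose, Krt8 with 19493 and 89 (283-fold higher, 230 to 353) and Krt18 with 14581 and 148 (122-fold higher, 104 to 145). The 7 trophoblast markers with counts summed to 89.2 CPM in F/A and 10.9 in serum/LIF, and of the 6 measured 5 rose and 1 fell. Cdx2 had 104 and 2 counts, Gata3 238 and 2, and Krt7 769 and 71, while Ascl2 had 31 and 113. Elf5, which was not in the normalised table, had 2 counts in F/A against 0 in serum/LIF.

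Fibroblast markers, a sign of feeder cells, summed to 129.2 CPM in F/A and 135.9 in serum/LIF, with 3 of 9 measured genes higher and 3 lower. Decorin (Dcn, 5 and 328 counts) and Thy1 (18 and 466 counts) were higher in serum/LIF, while the type I collagen gene Col1a1 had 504 and 459 counts. Pdgfra (812 and 89 counts), Postn (124 and 37) and Twist2 (38 and 10) were higher in F/A. On the longer fibroblast list 9 of 20 measured genes rose (45.0%) and 4 fell (20.0%). That list summed to 1521 CPM in F/A and 299.8 in serum/LIF. The part of other cell types in the results was not tested.

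Neural genes changed in both directions, 13 of 26 higher and 7 lower (median 1.28). The neural progenitor filament nestin (Nes) had 4460 and 217 counts and rose, as did the Iroquois homeobox gene Irx3 (1062 and 12 counts). Neuronal tubulin Tubb3 had 221 and 1189 counts and fell. Among 13 neural crest genes 8 rose, with Sox9 at 803 and 14 counts, and 5 fell, with Mitf at 51 and 1422 counts.

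Signalling genes rose more often than all genes in most pathway lists. In the Nodal and TGF-beta list 17 of 34 genes rose and 7 fell (median 0.98). Among ligands, Nodal itself had 721 and 547 counts (log2 change 0.50, not called), Tgfb2 had 2681 and 19 and was 180-fold higher (115 to 298), and Inhbb, the activin B subunit, had 7 and 2287 and was 290-fold lower (141 to 723). Gdf3, a Nodal-related ligand of ESCs, had 10 and 1469 counts, 132-fold lower (71.5 to 276). The ligands therefore did not move as one group.

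The inhibitors of Nodal differed from one another. Cer1, a secreted inhibitor made by anterior endoderm, had 467 and 1 counts, a ratio of 649 (116 to 25690). Lefty1 had 1200 and 684 counts, a ratio of 1.86 (1.70 to 2.05), and Lefty2 571 and 442, a ratio of 1.41 (1.24 to 1.60). Neither Lefty gene, both of which are direct targets of Nodal and Activin, was called. Smad7, the intracellular inhibitor, fell 3.66-fold (422 and 1666 counts, 3.29 to 4.08). The Nodal co-receptor Cripto (Tdgf1) had 1572 and 18714 counts in these WT cells, a log2 change of -3.40, while the related co-receptor Cfc1 (Cryptic) had 210 and 3, a ratio with a log2 value of 6.58.

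BMP genes rose in 22 of 28 cases and fell in 2 (median 1.44). Bmp2 had 1872 and 5 counts, 511-fold higher (219 to 1576). The BMP antagonist Nog had 1019 and 5 counts, 277-fold higher (118 to 854). Ligand and antagonist were thus higher in the same library. Bmp4 had 921 and 528 counts, a ratio of 1.87 (1.68 to 2.08), below the limit. The Id genes, the standard targets of BMP signalling, rose by less, Id1 2.43-fold (922 and 409 counts, 2.16 to 2.74) and Id3 3.69-fold (1106 and 325 counts, 3.26 to 4.19).

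Of 59 Wnt genes 35 rose and 8 fell (median 1.94). Among genes with at least 100 counts, secreted antagonists had the largest ratios: Dkk1 had 1055 and 1 counts, a ratio of 1430 (256 to 56520), and Frzb had 817 and 1, a ratio of 1104 (198 to 43670). The targets Sp5 (1001 and 10 counts, 132-fold, 71.5 to 276) and Axin2 (556 and 145 counts, 4.28-fold, 3.55 to 5.17) were higher as well. Notum, an enzyme that inactivates Wnt proteins, fell 9.86-fold (29 and 322 counts, 6.73 to 15.0).

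FGF genes gave 18 of 37 higher and 11 lower (median 0.95). Fgf4, the autocrine FGF of ESCs, had 15 and 3293 counts, 192-fold lower (116 to 344), opposite to Fgf5 and Fgf8. The receptor Fgfr2 had 1071 and 129 counts, 9.15-fold higher (7.61 to 11.1). Of the genes that respond to ERK, the phosphatase Dusp4 rose by 4.26 on the log2 scale (3545 and 205 counts) and the early factor Egr1 fell 3.93-fold (688 and 2875 counts, 3.62 to 4.28). In the LIF and STAT3 list 6 of 14 genes fell and 4 rose: the feedback inhibitor Socs3 fell 8.58-fold (320 and 2977 counts, 7.64 to 9.66) and Stat3 itself 2.75-fold (1259 and 3718 counts, 2.58 to 2.93), while the kinase Jak2 rose 4.60-fold (538 and 131 counts, 3.79 to 5.61).

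Hedgehog and Notch genes followed the same direction. In the Hedgehog list 9 of 14 rose and 1 fell (median 1.26). The ligand Shh, made by node and notochord, had 2921 and 4 counts, a log2 change of 9.96. Its receptor and target Ptch1 had 10186 and 2267 counts, 5.21-fold higher (4.98 to 5.46), Gli3 had 2454 and 250, 10.7-fold higher (9.39 to 12.2), and Gli2 had 936 and 4067, 4.04-fold lower (3.76 to 4.34). The log2 change of Ptch1 was 2.38 here and 0.51 in Cripto KO cells, and that difference was not tested. In the Notch list 11 of 21 rose and 4 fell (median 1.01), with the ligand Dll3 at 874 and 54 counts and the receptor Notch2 at 4976 and 645 counts.

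Retinoic acid genes rose in 10 of 21 cases and fell in 3 (median 0.81). The retinoic acid synthesising enzyme Aldh1a2 had 319 and 27 counts and the receptor Rarb 324 and 10. Stra8, a germ cell gene induced by retinoic acid, had 0 and 466 counts, at least 136.6-fold lower. Guidance molecules had 29 of 42 semaphorin, plexin, netrin and slit genes higher and 9 lower (median 1.98), with Sema6a at 3037 and 17 counts, 223-fold higher (139 to 383). Of 18 Eph receptors and ephrins 11 rose and 1, Epha4 (1626 and 4906 counts), fell.

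**Figure D2:**
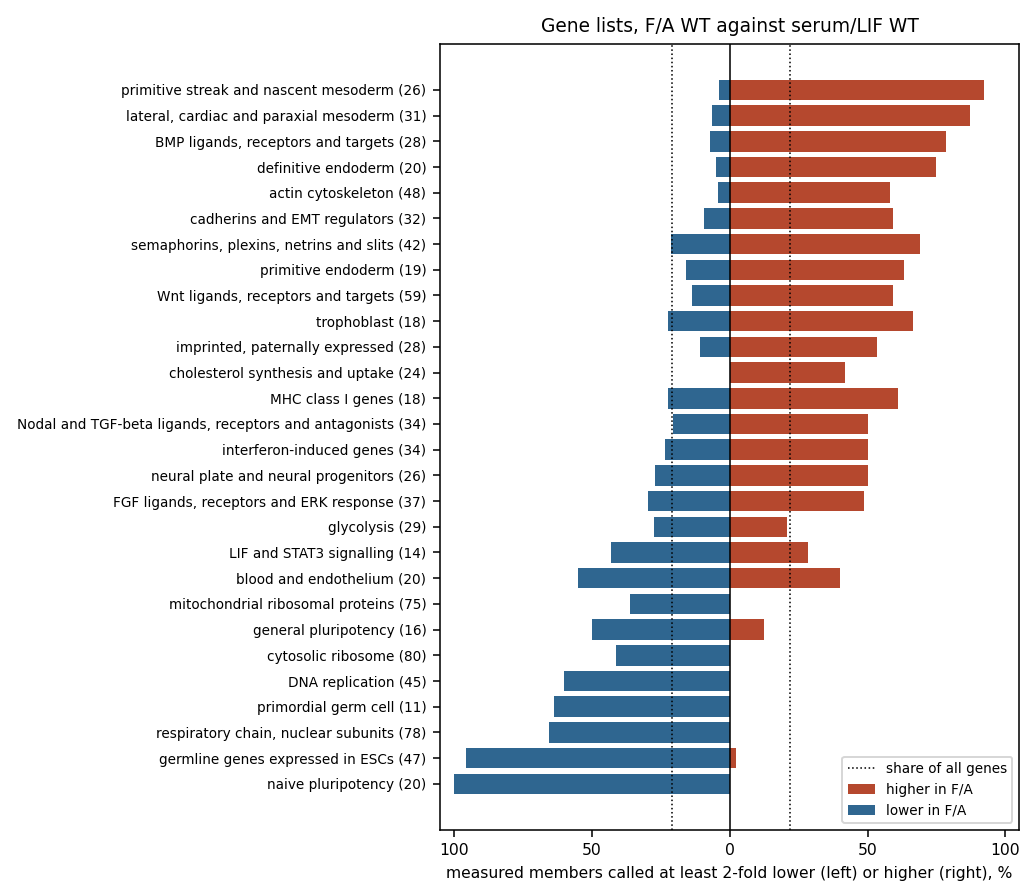
Share of the measured members of each gene list called at least 2-fold lower in F/A (left, blue) or higher (right, red), with the number of measured members in brackets. Dotted lines mark the shares over all 15462 genes, 20.9% lower and 22.0% higher; streak, mesoderm and BMP lists reach far to the right, and naive, germline and respiratory chain lists far to the left.

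Germline genes that ESCs express were nearly absent from the F/A library. Of 47 measured genes 45 fell and 1 rose. The median log2 change was -6.62, and the list summed to 122.8 CPM in F/A and 1894 in serum/LIF. With genes at 3 counts or fewer in either library left out, which removes many of the largest falls, the median was -4.10. These genes normally act in meiosis and in silencing of transposons, and many have promoters whose methylation represses them in somatic cells. In the Cripto KO libraries 42 of them fell.

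Stk31, a testis kinase gene, had 0 and 652 counts, at least 191.2-fold lower. Dazl, a translational regulator of germ cells, had 0 and 541 counts, at least 158.6-fold lower. Mael, a piRNA pathway factor, had 1 and 1158 counts, a ratio of 1494 (268 to 59060), and the synaptonemal complex gene Syce1 had 1 and 1050, a ratio of 1345 (241 to 53170). Each of the 4 was at or below the 3-count limit in F/A. Tex19.1 (8 and 999 counts, 113-fold lower, 57.3 to 263) and Ddx4 (14 and 498 counts, 31.8-fold lower, 18.7 to 58.5) kept a few counts. Tdrd5, a Tudor domain gene of the piRNA pathway, rose 2.23-fold (614 and 303 counts, 1.94 to 2.57), and Sycp1, a gene of the synaptonemal complex, was uncalled with 217 and 173 counts.

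Promoters of germline genes of this kind are known for E-boxes bound by E2F6-associated MGA and MAX. Of the 47 genes 41 matched a promoter (250 bases before to 50 after the start, RefSeq, GRCm38.p6), and 16 of them (39.0%) held the letters CACGTG, which read the same on both strands, beside 11.7% of 10266 promoters of all measured genes. Of those that fell, 15 of 39 held it. The E2F letters GGCGGGA, searched on both strands, were in 17.1% of the germline promoters and 23.6% of all. These matches describe the sequence alone. The 3 stretches shown here, with the E-box in capitals, are from genes at 0 or 1 count in F/A: Mael lies at chr1:166238926-166238994 (minus strand), Stk31 at chr6:49395448-49395525 (plus) and Hormad1, a meiotic axis gene with 0 and 519 counts, at chr3:95559584-95559661 (plus).
Mael: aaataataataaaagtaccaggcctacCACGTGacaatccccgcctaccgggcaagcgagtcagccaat
Stk31: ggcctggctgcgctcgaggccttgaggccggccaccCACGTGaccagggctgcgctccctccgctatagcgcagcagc
Hormad1: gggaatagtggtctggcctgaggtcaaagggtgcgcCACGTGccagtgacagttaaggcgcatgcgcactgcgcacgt

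Other members of early embryo and germ cell families moved with them. All 4 measured Rhox homeobox genes, an X-linked reproductive cluster, fell, and 7 of 9 Nlrp and Naip genes, several of them oocyte genes, fell while 2 rose. Of 11 primordial germ cell genes 7 fell and none rose. Only 2 genes of the 2-cell-like list were in the normalised table, and neither was called.

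A group of interferon-induced genes was present in F/A and nearly absent in serum/LIF. Of 34 measured interferon-induced genes 17 rose and 8 fell (median 0.99). Interferons act through factors that include STAT2, IRF1 and IRF9, and their target genes restrict viruses and load peptides on MHC class I. Isg15, a ubiquitin-like modifier, had 834 and 8 counts, 135-fold higher (68.4 to 315). Usp18, which removes Isg15 from proteins, had 1050 and 7 counts, 194-fold higher (93.9 to 484). The RNA sensor Ifih1 (MDA5) had 316 and 3 counts, a ratio of 145 (49.1 to 706), and the antiviral gene Oasl2 876 and 9, a log2 change of 6.94. All 4 had fewer than 10 counts in serum/LIF.

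The guanylate-binding proteins (Gbp), GTPases that interferon gamma induces, were looked at after their values had been seen. All 10 measured genes rose, with 43 to 2914 counts in F/A and 0 to 11 in serum/LIF and a median log2 change of 6.81. Gbp2 had 2914 and 7 counts, 544-fold higher (264 to 1354), and Gbp1 had 2801 and 4, 961-fold higher (375 to 3528). The Gbp genes lie in 2 clusters of related copies, on chromosomes 3 and 5, whose shared reads may be uncertain. All 10 rose in Cripto KO cells too, with a median of 5.35. All 5 immunity-related GTPase genes, also picked after their values were seen, rose (median 5.49), with Irgm1, which acts in autophagy of pathogens, at 1636 and 40 counts.

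The MHC class I pathway followed. Among MHC class I genes 11 of 18 rose and 4 fell (median 1.55), and the light chain B2m rose 3.14-fold (1193 and 410 counts). The peptide transporter Tap2 had 762 and 47 counts, a log2 change of 4.26, and Tap1 704 and 111, 7.04-fold higher (5.75 to 8.68). The inducible proteasome subunit Psmb8 had 700 and 5 counts, 190-fold higher (81.1 to 588). All 5 subunits of the immunoproteasome and its activator, also picked after their values were seen, rose (median 2.49). The whole proteasome list had 6 of 41 higher and 5 lower. H2-M5, a non-classical class I gene, fell 86.5-fold (22 and 2113 counts, 57.0 to 138).

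Of the regulators of this pathway Irf1, Stat2 and Irf9 had smaller ratios than Isg15, Usp18, Oasl2 and Ifih1. Irf9 had 406 and 267 counts, a ratio of 1.69 (1.45 to 1.98), uncalled. Irf1 rose 3.22-fold (1604 and 533 counts, 2.92 to 3.56) and Stat2 2.15-fold (868 and 433 counts, 1.92 to 2.42). Of the genes that fell, Ifitm2 had 1014 and 3020 counts, 2.77-fold lower (2.58 to 2.98), and Oas3 had 35 and 133, 3.37-fold lower (2.31 to 5.04). In Cripto KO cells the log2 changes were 5.81 for Isg15, 6.24 for Usp18, 4.96 for Psmb8 and -0.54 for Stat2.

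**Figure D3:**
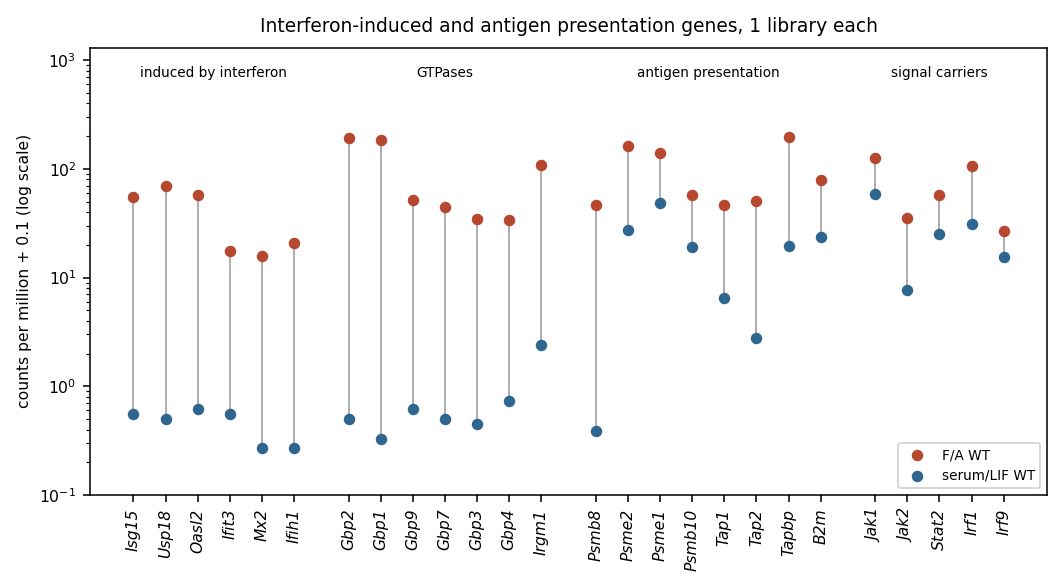
Raw CPM (0.1 added, log scale) of interferon-induced and antigen presentation genes in the F/A WT library (red) and the serum/LIF WT library (blue), 1 library each, joined by a grey line for each gene. The 6 Gbp genes drawn, Isg15, Usp18 and Psmb8 stand at 11 raw counts or fewer in serum/LIF and at 516 or more in F/A, while Irf9 differs by less than 2-fold.

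Of 27 interferon-induced genes with a matched promoter 12 (44.4%) held the letters GAAANNGAAA on one or the other strand, a pair of interferon response half-sites, beside 3.52% of all 10266 promoters. Of the genes that rose, 7 of 14 held them. The 3 stretches shown, with the pair in capitals, are from genes that rose: Isg15 at chr4:156200851-156200932 (minus), Ifit3 at chr19:34583337-34583418 (plus) and Ifit1 at chr19:34640749-34640830 (plus). In Ifit3 and Ifit1 the capitals are the complementary letters of the pair.
Isg15: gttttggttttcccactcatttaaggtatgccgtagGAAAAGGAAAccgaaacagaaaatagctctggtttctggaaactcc
Ifit3: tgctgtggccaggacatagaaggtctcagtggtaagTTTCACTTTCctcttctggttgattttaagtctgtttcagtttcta
Ifit1: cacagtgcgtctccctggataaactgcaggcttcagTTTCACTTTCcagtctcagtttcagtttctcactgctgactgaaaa

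Imprinted genes, which are read from only one parental allele, rose more often on the paternal side of the list. Of 28 paternally expressed genes 15 rose and 3 fell (median 1.13), and of 26 maternally expressed genes 10 rose and 6 fell (median 0.40). Igf2, the fetal growth factor (chromosome 7, 149836673 to 149852721, NCBIM37), had 18608 and 22 counts, 1176-fold higher (777 to 1878). Its neighbour H19, a noncoding RNA read from the other allele, had 12078 and 408 counts, 35.3-fold higher (32.0 to 39.1). The pair therefore rose together in summed allele counts.

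Peg3, a paternally expressed zinc finger gene, had 50910 and 928 counts, 66.8-fold higher (62.6 to 71.3), and Zim1, the maternally expressed gene next to it, 405 and 6, 88.5-fold higher (40.3 to 242). The cell cycle inhibitor Cdkn1c had 1588 and 201 counts, 8.63-fold higher (7.45 to 10.1). Igf2r, the receptor that clears Igf2, had 6297 and 4575 counts, a log2 change of 0.64, uncalled, although its antisense RNA Airn had 153 and 3, a ratio of 69.0 (23.2 to 338). Cobl fell 10.9-fold (625 and 7441 counts, 10.1 to 11.9).

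Meg3 and Rian, noncoding RNAs of one maternal cluster, had 9569 and 5190 counts (log2 change 1.10) and 6330 and 4911 counts (0.56). In Cripto KO cells the log2 changes were -3.08 for Meg3 and -3.03 for Rian. The difference was not tested, since each genotype had 1 library a condition.

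Genes for energy metabolism mostly had lower values in F/A. Of 78 nuclear subunits of the respiratory chain 51 fell and none rose (median -1.17). After the running median over transcript length was subtracted, 28 were lower and the median was -0.80. Atp5g1, a subunit of the ATP synthase ring, had 395 and 2294 counts, 5.31-fold lower (4.77 to 5.92). Mitochondrial ribosomal proteins gave 27 of 75 lower and none higher (median -0.86), and 16 lower after the same subtraction (median -0.62). Of 12 proteins encoded by mitochondrial DNA, only mt-Nd3 (2025 and 5615 counts) was called, and it fell. A log2 change below 0 was seen for 11 of the 12, with a median of -0.44 (-0.13 after the length subtraction). The 12 genes summed to 18630 CPM in F/A and 32470 in serum/LIF. Among pyruvate dehydrogenase and TCA cycle genes 9 of 37 fell (24.3%, near the share over all genes) and 1 rose (2.70%).

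Glycolysis genes did not move one way, with 6 of 29 higher (20.7%) and 8 lower (27.6%), or 7 higher and 4 lower after the length subtraction. The transporters rose: the lactate carrier Slc16a1 had 19260 and 1823 counts, a log2 change of 3.66, and the glucose carrier Slc2a1 19990 and 7221, 3.40-fold higher (3.31 to 3.50). The phosphofructokinase Pfkp had 602 and 11805 counts, 17.3-fold lower (16.0 to 18.8), and the lactate dehydrogenase Ldhb 1077 and 7785, 6.66-fold lower (6.25 to 7.11). Ldha (9966 and 19191 counts, 1.57-fold lower, 1.53 to 1.61) and Hk2 (3328 and 6403, 1.76-fold lower, 1.69 to 1.84) were not called.

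Of 24 genes for cholesterol synthesis and uptake 10 rose and none fell (median 0.82). Srebf2, the transcription factor that switches on the genes of cholesterol synthesis, had 5973 and 2527 counts, 2.61-fold higher (2.49 to 2.73). Genes of fatty acid synthesis and oxidation had 7 of 37 higher (18.9%) and 8 lower (21.6%), near the shares over all genes. Cpt1a, which admits fatty acids to mitochondria for oxidation, had 19 and 1908 counts, 90.8-fold lower (58.0 to 151). The desaturase Scd2 had 24535 and 5994 counts, 4.64-fold higher (4.51 to 4.77), and the fatty acid transporter Cd36 174 and 0, at least 65.94-fold higher.

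Amino acid and one-carbon enzymes had 12 of 41 lower (29.3%) and 1 higher (2.44%). Tdh, the threonine dehydrogenase on which mouse ESCs depend, had 0 and 110 counts, at least 32.25-fold lower. The argininosuccinate synthase Ass1 had 279 and 3380 counts, 11.2-fold lower (9.91 to 12.7). Of 32 glutathione and redox enzymes 11 fell and 2 rose, with the superoxide dismutases Sod2 at 482 and 3118 counts and Sod1 at 1820 and 9588.

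Of 80 cytosolic ribosomal proteins 33 fell and none rose (median -0.92). After subtraction of the length median only 3 were lower (median -0.51). None was called in Cripto KO cells, where the median was -0.18. Of 45 DNA replication genes 27 fell and none rose (median -1.14, length-subtracted -0.92), among them the helicase subunits Mcm3 (3592 and 13922 counts, 3.42-fold, 3.30 to 3.55) and Mcm5 (2751 and 9965, 3.32-fold, 3.19 to 3.47). DNA repair had 13 of 45 lower (28.9%) and mitosis and spindle 8 of 41 (19.5%, near the share over all genes), with none higher in either. Ribosome biogenesis genes had 11 of 40 lower (27.5%) and 1 higher (2.5%).

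Of the G1 genes 5 of 27 rose (18.5%) and 6 fell (22.2%), near the shares over all genes. Cyclin D2 (Ccnd2), which starts G1 progression, had 7904 and 164 counts, a log2 change of 5.83, cyclin E1 (Ccne1) had 643 and 2128, 3.07-fold lower (2.81 to 3.36), and Ccnd1, at 1365 and 2438, was uncalled. Among apoptosis regulators 10 of 30 rose and 3 fell: the survival gene Bcl2 had 531 and 5 counts, 147-fold higher (62.6 to 454), while Mcl1, another survival gene, had 3339 and 9044, 2.47-fold lower (2.37 to 2.57).

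Log2 change varied with transcript length over protein-coding genes. In the shortest eighth, with a median length of 641 nucleotides, 243 of 1745 genes rose and 482 fell (median log2 change -0.43), and in the longest eighth, with a median of 5132, 602 rose and 229 fell (median 0.47). For Cripto KO cells the medians were -0.17 and 0.13. Spearman's rho between length and log2 change was 0.257 across the 9351 protein-coding genes with a mean normalised value over 200, and 0.085 in Cripto KO cells, as a description, since genes share libraries and are not independent. The short ribosomal and respiratory chain genes lie at the end where the median is negative. The part of length in their values was not tested beyond the subtraction given above.

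**Figure D4:**
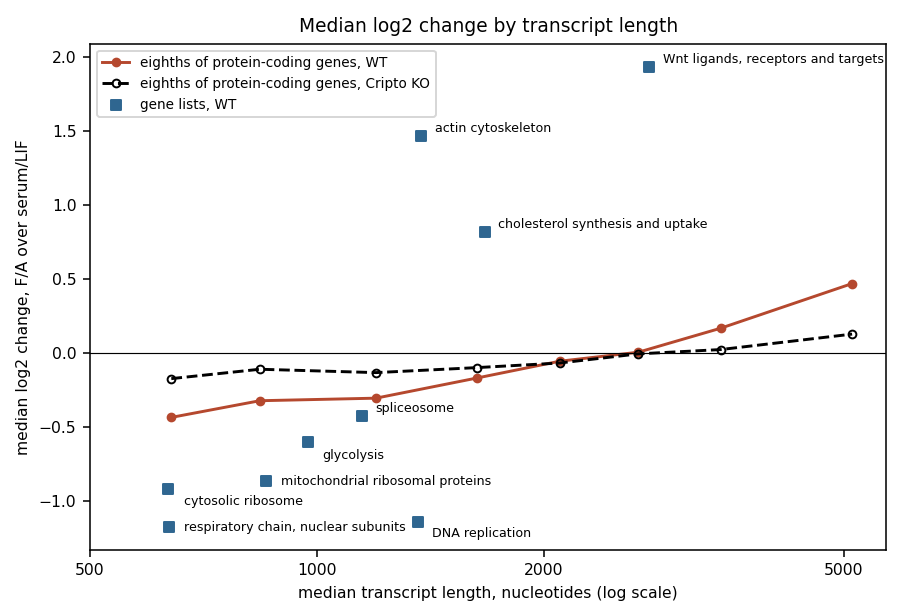
Median log2 change of F/A over serum/LIF (y axis) against median transcript length in nucleotides (x axis, log scale) for eighths of the protein-coding genes in WT (filled circles) and Cripto KO cells (open circles), with gene lists of WT as squares. The WT line climbs from -0.43 at 641 nucleotides to 0.47 at 5132, and the Cripto KO line from -0.17 to 0.13.

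Genes of cell shape and adhesion mostly rose. Of 48 actin cytoskeleton genes 28 rose and 2 fell (median 1.47). Smooth muscle actin (Acta2) had 2854 and 55 counts, 62.6-fold higher (48.0 to 83.4), and transgelin (Tagln), an actin-binding protein, 8595 and 106, 97.1-fold higher (80.2 to 119). Skeletal actin (Acta1) had 1222 and 3 counts, a ratio of 554 (189 to 2689). The ubiquitous actins moved less, Actg1 3.51-fold (14506 and 5005 counts, 3.40 to 3.63) and Actb 1.99-fold (23533 and 13941 counts, 1.95 to 2.03), the latter just under the limit. Cyr61, a matricellular target of YAP and SRF, had 8022 and 304 counts, 31.0-fold higher (27.6 to 34.9).

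Serum response factor is known to act on actin genes through the CArG box. Of 42 actin cytoskeleton genes with a matched promoter 9 (21.4%) held one, beside 1.65% of all 10266, and 6 of 25 of those that rose did. The 3 stretches shown, with the CArG box in capitals, are from genes that rose: Actc1 at chr2:114052877-114052958 (minus), Acta1 at chr8:123894803-123894884 (minus) and Myl9, a myosin light chain gene with 401 and 31 counts, at chr2:156775267-156775348 (plus). As before, a match says nothing about binding in these cells.
Actc1: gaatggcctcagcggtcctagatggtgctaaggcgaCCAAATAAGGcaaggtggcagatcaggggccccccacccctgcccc
Acta1: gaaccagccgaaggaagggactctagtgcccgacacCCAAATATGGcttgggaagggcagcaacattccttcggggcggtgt
Myl9: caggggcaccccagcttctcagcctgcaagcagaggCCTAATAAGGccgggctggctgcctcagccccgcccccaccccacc

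Of 9 motifs searched in all, the other 5 were compared likewise on both strands. TGACGTCA was in 7.69% of respiratory chain promoters and 3.51% of all, and GCGCATGCGC in 7.69% and 2.17%. TCACACCT was in 4.76% of streak promoters and 1.02% of all, and GGAATG in 31.0% of actin cytoskeleton promoters and 14.9% of all. TCACCCCAC was in none of 15 cholesterol promoters and 0.760% of all.

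Cadherins and regulators of epithelial to mesenchymal transition had 19 of 32 higher and 3 lower (median 1.48). The mesenchymal factors Zeb2 (762 and 70 counts, 12.4-fold, 9.68 to 16.1), Twist1 (368 and 67, 6.44-fold, 4.95 to 8.49) and Snai1 (247 and 57, log2 change 2.37) rose. E-cadherin (Cdh1), the epithelial counterpart of Cdh2, rose as well, 2.27-fold (16176 and 8981 counts, 2.21 to 2.33), and Epcam was uncalled with 2901 and 2864. Epithelial and mesenchymal genes were thus both present in the F/A library.

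Claudins, keratins and desmosome genes rose in 15 of 23 cases and fell in 3 (median 2.18). All 6 protocadherins outside the clusters rose, with Pcdh7 at 3274 and 19 counts, and 6 of 7 clustered ones rose with none lower. Basement membrane genes had 16 of 26 higher and 2 lower (median 1.69): type IV collagen Col4a2 had 5315 and 557 counts, 10.4-fold higher (9.56 to 11.4), and the integrin subunit Itgb1 that binds it 11626 and 2396, 5.68-fold higher (5.44 to 5.94). The integrin list had 8 of 22 higher and 6 lower (median 0.04, length-subtracted -0.30), with Itgb7 (11 and 783 counts) and Itgal (5 and 206 counts) among those that fell. Matrix proteases and inhibitors had 26 of 44 higher and 4 lower (median 1.56).

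Chromatin regulators changed one by one. In the DNA methylation list 5 of 29 rose (17.2%) and 8 fell (27.6%). The TET enzymes, which oxidise methylcytosine, went in different directions: Tet3 had 2787 and 355 counts, 8.52-fold higher (7.62 to 9.54), Tet2 had 340 and 4451, 11.8-fold lower (10.6 to 13.3), and Tet1 had 1398 and 5210, 3.49-fold lower (3.29 to 3.71). Dnmt3l, the cofactor of de novo methyltransferases, had 13 and 4926 counts, 326-fold lower (190 to 613). Maintenance methyltransferase Dnmt1 (4202 and 7426 counts, 1.59-fold lower, 1.53 to 1.66) and Dnmt3a (1809 and 1182, a ratio of 1.62, 1.51 to 1.75) were uncalled.

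Of 33 Polycomb subunits 5 rose (15.2%) and 7 fell (21.2%, near the share over all genes). Eed, which reads methylated histone H3, had 1034 and 5722 counts, 5.22-fold lower (4.88 to 5.58), and Ezh2, the methyltransferase of the same complex, 2651 and 4058, a log2 change of -0.51 and uncalled. In the canonical complex Phc1 fell (2965 and 13406 counts) while Phc2 rose (1841 and 575 counts), and Cbx7 fell (736 and 2591). Remodelling and deacetylase complexes had 15 of 57 higher (26.3%) and 6 lower (10.5%). Among them Chd7 had 4503 and 762 counts, 6.52-fold higher (6.04 to 7.05). The histone methyltransferase Setd7 had 4349 and 397 counts, 12.1-fold higher (10.9 to 13.5).

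Of 633 long intergenic RNAs 202 (31.9%) rose and 122 fell (median 0.25). With genes averaging under 50 raw counts left out, 89 of 405 rose and 75 fell (median 0.08). Of 529 processed transcripts 170 rose and 125 fell, and of 13958 protein-coding genes 2954 rose and 2883 fell. Pseudogenes had 45 of 230 higher and 70 lower. The long intergenic RNA gene Gm5091 had 0 counts in F/A against 589 in serum/LIF, and Foxl2os had 213 and 2. Of all measured genes 26.56% share exon bases with a gene on the opposite strand. Whether the counting used strand is not given in the sources used here, and if it did not, reads from those bases cannot be told apart.

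Precursors of 2 ESC miRNA families moved in opposite directions. Reads here fall on the hairpin regions of long RNA and do not measure mature miRNAs. The 7 hairpins of miR-290 to miR-295, the main miRNA cluster of naive ESCs, summed to 47 counts in F/A against 315 in serum/LIF, 5.90-fold lower (4.33 to 8.19), and all 7 had more counts in serum/LIF. The 5 hairpins of miR-302 and miR-367, a cluster of primed cells, summed to 48 and 1, a ratio of 54.6 (9.34 to 2200), and all 5 had more counts in F/A. These 5 lie below the filter of the normalised table. In Cripto KO cells the sums were 16 and 317 for the first cluster and 12 and 0 for the second. The KO F/A sums are given undivided, although nearly all counts of that library are even. The mature sequences (RefSeq, GRCm38.p6) are shown because members of both clusters share 1 seed, bases 2 to 8, in capitals; the miR-302 hairpins are on chromosome 3 and the others on chromosome 7.
miR-302b-3p: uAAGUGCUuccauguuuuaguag
miR-302d-3p: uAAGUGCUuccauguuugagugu
miR-291a-3p: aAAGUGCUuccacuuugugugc
miR-294-3p: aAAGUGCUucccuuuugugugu
miR-295-3p: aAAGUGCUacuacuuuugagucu

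Among the autosomes and the X chromosome, chromosome 1 had the lowest median and X the highest. Chromosome Y, with 7 measured genes, and the mitochondrial genome, with 18, are left out of this order and had medians of -1.08 and -0.63. On chromosome 1, 175 of 885 genes rose and 255 fell, with a median log2 change of -0.41 beside -0.07 on the other autosomes and -0.27 on chromosome 7, the next lowest. All 8 windows of 25 Mb along it had a negative median, from -0.58 to -0.15. The median of chromosome 1 was -0.38 in Cripto KO cells. On the X chromosome 182 of 553 genes rose and 111 fell, with a median of 0.30 beside 0.16 on chromosome 14, the next highest, and 0.16 for the X chromosome in Cripto KO cells. Chromosomes 1 and X were lowest and highest among these under each of 5 other scalings or corrections. Xist, the RNA of X inactivation, had 56 and 236 counts and its overlapping antisense gene Tsix 45 and 210.

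**Figure D5:**
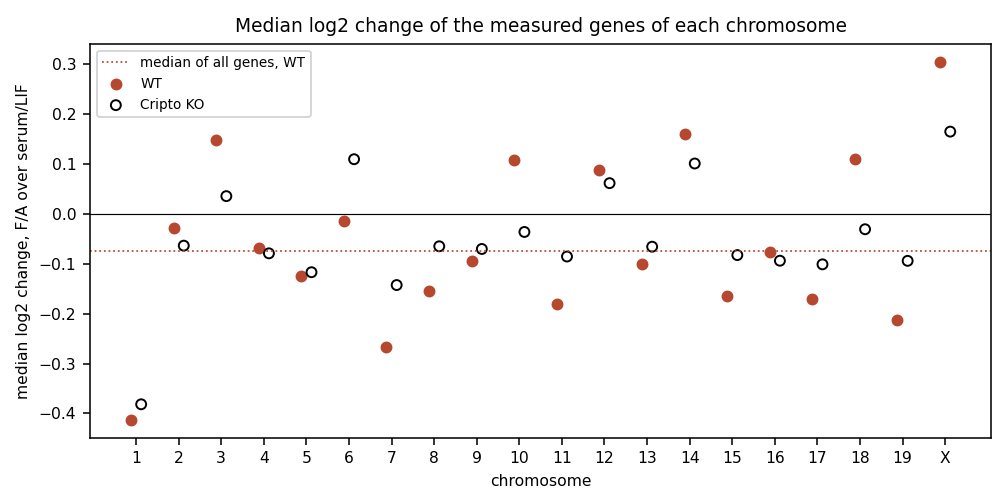
Median log2 change of F/A over serum/LIF (y axis) for the measured genes of each chromosome (x axis) in WT (red) and Cripto KO cells (open circles), with the WT median of all genes as a dotted line and without chromosome Y and the mitochondrial genome. Chromosome 1 (-0.41) is the lowest autosome and the X chromosome (0.30) the highest chromosome in WT.

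Neighbouring genes that were called the same way formed 51 runs of 5 or more. The longest, 19 genes that fell, spans 144857040 to 147183895 on chromosome 4 (NCBIM37) and holds mostly zinc finger genes of one repeated family. A window drawn around that run after its values had been seen holds 20 protein-coding genes, so the 19 that fell there are the run itself. The median of the 20 was -3.54, and -4.21 in Cripto KO cells. Zfp600 had 2 and 609 counts, a ratio of 258 lower in F/A (71.2 to 2138), and Zfp534 51 and 1010, a log2 change of -4.21. Reads of these near-identical copies may be split or lost, so the value of a single member is uncertain. Over all 340 measured genes named Zfp, 48 rose and 55 fell. A run of 9 genes that rose, on chromosome 5 from 12383166 to 20210616, holds 4 semaphorin 3 genes and Cd36, and 2 further runs hold the Gbp clusters.

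Some genes were detected in one library only. With at most 3 counts in one and at least 50 in the other, 131 genes were found in F/A alone and 288 in serum/LIF alone, of which 110 and 236 were protein-coding. No count at all was seen in the other library for 36 and 116 of them. In Cripto KO cells 71 of the 131 had at most 3 counts in serum/LIF and at least 50 in F/A. For the 288 the limit in KO F/A was raised to 6 counts, and 182 met it with at least 50 in serum/LIF. The limit of 50 was not raised for KO F/A, so the 2 counts do not rest on the same rule. The F/A genes with most counts, beside Fgf5, Lhx1, Fgf8 and Acta1, were the apelin receptor Aplnr (2358 and 1), a G protein-coupled receptor of early mesoderm, and Rasef (1547 and 2), a Rab-type GTPase. Apelin (Apln), the ligand of Aplnr, had 390 and 6 counts, 85.6-fold higher (39.0 to 235). On the serum/LIF side Ooep, an oocyte protein gene, had 1 and 2594 counts, the helicase gene D1Pas1 0 and 2694, and Triml1, of the TRIM class, 0 and 2318.

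Genes often used as references were not all level. Of 15 such genes 1 rose and 3 fell (median -0.59). Gapdh had 15632 and 43405 counts, 2.05-fold lower (2.01 to 2.08), Hprt 940 and 2036, 2.03-fold lower (1.88 to 2.19), and Rplp0 8732 and 23264, 2.17-fold lower (2.12 to 2.22). The 3 sit near the limit of the call, as did Actb on the other side. Tbp (1260 and 2378 counts, 1.77-fold lower, 1.66 to 1.90) was uncalled.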

How the data were processed

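Total RNA was sequenced as 1 library for each condition. Per the labels and the methods, the authors aligned reads with TopHat2 (2.0.13) to mm9 (NCBIM37) and counted them per gene with HTSeq (0.6.1p1, intersection-nonempty) on Ensembl 67. The raw counts are deposited without normalisation. The authors then quantile-normalised them over the 4 libraries and kept genes by the proportion test of NOISeq at 1 CPM (counts per 1000000), and the deposited normalised values are a signal with no depth of their own. Whether counting used strand is not given in the sources used here. All columns matched a sample (0 did not), and 0 rows named no gene.

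Here, values of 0 were replaced by 0.5, log2 changes were taken from the normalised values, and 95% Clopper-Pearson intervals of the ratio came from the raw counts, rescaled to the normalised ratio. Intervals and the limit of 3 counts per library (0.197 CPM in F/A, 0.173 in serum/LIF) cover counting error only. For genes at or under that limit the normalised ratio can exceed the ratio of CPM. It was 1571 against 1085 for Lhx1 and 1022 against 714 for Fgf8. No test between conditions is possible with 1 library a side. Gene symbols, positions and transcript lengths came from Ensembl 65 (NCBIM37) for 15424 of the genes, and sequences came from RefSeq (GRCm38.p6), matched by symbol.

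The 73 gene lists and 60 symbol families, and the comparison itself, were chosen with earlier results of these data known. Of 2379 list entries 2188 were measured, that is, in the normalised table, and 157 others had raw counts alone. In each list or family up to 4 genes a direction were named, by the largest called log2 change with at least 100 counts in the higher library. Some genes so named are not reported here. Genes the study names were added, and for the genes detected in one library the 6 with most counts. Other genes in the text were taken from the lists and markers after their values were seen. Cripto KO values were computed the same way. Nearly all counts of the KO F/A library are even (0.016% are odd), and they were divided by 2 for its intervals.

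Alternatives were total-count scaling, TMM (edgeR 4.0.16), DESeq2 (1.42.0) size factors, 5 added to every value, other filters and call rules, and subtraction of the running median over transcript length (501 genes). The scripts were tested on simulated data. Python 3.11.15, numpy 2.4.6, scipy 1.17.1, pandas 2.3.3, matplotlib 3.10.9 and R 4.3.3 were used.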

Additional observations from a re-analysis of the deposited data

Results flagged for a closer look

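Crabp1, a cellular retinoic acid binding protein gene, moved in opposite directions in the 2 genotypes. In WT cells the F/A library held 110 counts and the serum/LIF library 430, a log2 change of -1.85 (-1.853 before rounding), and in Cripto KO cells they held 1072 and 213, a log2 change of 2.26. The 1072 counts are given undivided, although nearly all counts of the KO F/A library are even. Each genotype had 1 library a condition, so the difference was not tested.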

How the results depend on the processing

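No paired analysis was possible because each condition had 1 library and no test was made, and leaving out a library was not possible for the same reason. Under the other scalings, filters and call rules the number of genes higher in F/A ranged from 2446 to 3878 and of genes lower from 2381 to 3836, except with a fold of at least 4, which gave 1780 and 1495. With at least 100 counts required in the library of detection, 70 genes were detected in F/A alone and 140 in serum/LIF alone. With 0 counts required in the other library, the numbers were 36 and 116. Of 133 list and family medians, 5 changed sign when genes averaging under 50 raw counts were left out, blood and endothelium to 0.54, potassium channels to -0.54, sodium and calcium channels to 1.08, and kinesins and Zfp genes close to 0. Each other scaling or correction turned 0 to 8 medians, of which the largest had been 0.154 in size. Subtracting the length median brought the number lower from 51 to 28 in the respiratory chain, from 33 to 3 in the cytosolic ribosome and from 27 to 16 in the mitochondrial ribosome. Depth limits what can be said of genes with few counts, since 3 counts or fewer cannot be told from 0.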
